A study of Mus musculus with 3 samples.

Results

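The genes described here encode the proteasome, its activators, its inhibitor and its assembly chaperones. Members were taken by name, as every gene of the filtered table whose symbol starts with Psma to Psmg followed by a digit, which gave 49 of 16178 genes. Of these, 48 are known subunits or regulators: 8 outer-ring genes, 4 structural, 3 constitutive catalytic and 4 immuno- or thymoproteasome genes of the inner ring, 6 ATPases, 14 non-ATPase genes, 4 activators, 1 inhibitor and 4 assembly chaperones. The remaining name, Psmc3ip, matches the pattern but encodes a recombination cofactor and no subunit. The role groups were set by gene name, so a Psmd gene counts as non-ATPase even where it encodes no lasting subunit.

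The proteasome degrades proteins marked with ubiquitin. Its core particle is a barrel of outer alpha rings and inner beta rings, and 3 of the beta subunits (Psmb5, Psmb6 and Psmb7) cut peptide bonds. A regulatory particle of ATPases (Psmc genes) and non-ATPase subunits (most Psmd genes) binds ubiquitin chains, unfolds the substrate and feeds it into the core. Interferon-gamma induces Psmb8, Psmb9 and Psmb10, which replace Psmb5, Psmb6 and Psmb7 in the immunoproteasome, and the activator genes Psme1 and Psme2. The immunoproteasome is best known for making peptides presented by MHC class I molecules, and in the brain it is known from microglia.

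Male C57BL/6J mice from Envigo gave the tissue, the subventricular zone, which is a niche of adult neural stem cells, and its cells were sequenced singly. Per the labels' protocols, 8 mice were used per experiment, so that the cells of an experiment are a pool of animals. The tissue was dissociated with trypsin, cells were selected on a magnetic column for GLAST, an astroglial glutamate transporter, and myelin was removed in 2 of the 3 experiments, which are not named. The 3 samples are plates of 1 group with no treatment or genotype contrast, so the comparisons here run between the authors' clusters and between cells of high and low autofluorescence, a cell's own light in the absence of any dye, which the series title relates to stem cell activation.

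The plates held 43, 45 and 61 cells, with 297573, 413728 and 478504 estimated transcripts in total and between 1208 and 37442 per cell. Well names were shared between plates (24 between plates 1 and 2, 25 between 1 and 3, and 27 between 2 and 3), as a fixed plate layout gives. All samples are labelled as neural stem cells, but most cells carried markers of other types. Clusters 0 and 2 (42 and 35 cells) were oligodendrocyte-like, cluster 1 (36 cells) was microglia-like with all 10 microglial markers at their highest there, and cluster 3 (30 cells) was astrocyte or quiescent stem-cell-like. Cluster 4 (6 cells) was dividing stem-cell-like, with all 8 markers of dividing or activated stem cells at their highest there. Of 7 neuroblast markers, 4 (Dcx, Dlx1, Dlx2 and Sp9) were also highest in cluster 4, while Cd24a, Tubb3 and Sp8 were at 0. The neuroblast markers summed to 1352 CPM there against 7.86 to 62.6 in the other clusters. The name therefore does not set stem cells apart from their dividing progeny. Of 5 markers of macrophages and other leukocytes, Lyz2 and Ptprc were detected in cluster 1 and highest there, with a sum of 519 CPM against 2.23 to 44.5 in the other clusters, while Mrc1, Cd3e and Ccr2 were at 0. Of 5 endothelial or mural markers, 4 were detected in cluster 1 and 3 were highest there. They summed to 236 CPM in cluster 1 against 0 to 95.5 in the other clusters. The part of leukocytes and of endothelial or mural cells in the results on cluster 1 was not tested. Plate 1 stood apart in its makeup: it held 25 of the 30 cells of cluster 3 and 5 of the 6 cells of cluster 4, but only 4 of the 77 oligodendrocyte-like cells.

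The members together held 4346 of the estimated transcripts, 0.365% of the total, with a median of 22 per cell. Their share was 0.436% on plate 1, 0.335% on plate 2 and 0.347% on plate 3. Levels are given as CPM, a gene's transcripts after all transcripts of the same cells were scaled to 1000000. Transcripts were counted by molecular identifiers at the 3′ end, so CPM was compared between genes without division by length. Intervals printed with counts are exact 95% intervals and cover counting error only.

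The exchangeable catalytic genes and the activators carry the clearest pattern, so short stretches of their promoters are shown first. In RefSeq's table of promoters (build GRCm38.p6, 300 bases each, from 250 before to 50 after the start), 41 of the 49 members were matched. Each was searched on both strands for an interferon response element (GAAA, 2 bases of any kind, GAAA), for TTCNNNGAA, the gamma-activated site bound by STAT factors, for TGACNNNGC, the antioxidant response element, and for the CCAAT box. The matched letters are in capitals, and each stretch is 30 bases read along the gene's strand.
Psmb8: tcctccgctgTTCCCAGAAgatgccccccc
Psmb9: gcagccgctgATTGGaaagccgagccccgc
Psme1: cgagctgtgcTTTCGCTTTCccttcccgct
Psmb5: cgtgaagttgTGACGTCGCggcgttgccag
Psmb6: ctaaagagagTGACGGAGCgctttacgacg

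The stretch of Psmb8 lies at chr17:34198088-34198117 on the plus strand, with a TTCNNNGAA match that begins 97 bases before the RefSeq start. That of Psmb9 (chr17:34187319-34187348, minus strand) holds a CCAAT box on the opposite strand, and that of Psme1 (chr14:55578493-55578522, plus strand) holds the interferon response element on the opposite strand, from the 10th base after the start. GENCODE M21 places these 3 stretches in annotated untranslated sequence of the same genes, so the start sites differ between annotations. The constitutive partners Psmb5 (chr14:54618023-54618052, minus strand) and Psmb6 (chr11:70525338-70525367, plus strand) each hold TGACNNNGC. Psmb7 had no entry in the table. The windows of Psmb10 and Psme2 held none of the 4 motifs. Across all 32851 windows the shares with a match were 3.44% for the interferon response element, 8.3% for TTCNNNGAA, 12.4% for TGACNNNGC and 37.4% for CCAAT, so the common motifs are found in many unrelated promoters. Among the 41 members they were found in 5, 3, 6 and 15 genes. Counted by gene over 27025 genes, the shares with a match were 3.993, 9.554, 13.99 and 41.06%. Of the 5 genes Psmb8, Psmb9, Psmb10, Psme1 and Psme2, each motif was found in 1, except TGACNNNGC in 0. The other members with the interferon response element were Psmd4, Psmd9, Psmb3 and Psmg4. Those with TTCNNNGAA were Psmd2 and Psmg1. Psmb9, Tap1 (a peptide transporter) and Psmb8 are neighbours on chromosome 17, and Psmb9 and Tap1 overlap on opposite strands. The overlap lies at the starts of both genes, while transcripts were counted at the 3′ end. The sources used here do not give the strand used in counting, and whether any read fell in the overlap was not examined.

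The 3 immunoproteasome genes were highest in microglia-like cells. Psmb8, the chymotrypsin-like immunoproteasome subunit, measured 168 CPM on plate 1, 109 on plate 2 and 126 on plate 3 in the microglia-like cluster. In the oligodendrocyte-like clusters it measured 0, 3.06 and 0 CPM, which is 1 identifier in all. No identifier was found in cluster 3 or 4. Every microglia-like plate was thus above every plate of the other kinds. The ratio of the pooled levels, microglia-like over oligodendrocyte-like, was 101 with a counting interval of 15.7 to 4244, and against cluster 3 the level was at least 6.59-fold higher, with a floor of 3 identifiers over the group.

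Psmb9, the caspase-like-site replacement, measured 101, 40.7 and 41.9 CPM on the 3 microglia-like plates. It was at 0 in every other cell, and the pooled level was at least 14.8-fold higher than in the oligodendrocyte-like clusters, by the same floor. Only 7 identifiers stand behind these values.

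Psmb10, which replaces Psmb7, measured 202, 67.9 and 41.9 CPM in the microglia-like cluster. In the oligodendrocyte-like clusters it measured 0, 6.11 and 4.63 CPM. Cluster 3 lay between them, with 30.6 CPM on plate 1 and 44.8 on plate 3, so that it overlapped the lowest microglia-like plate. On plate 3 the value of cluster 3 and that of the microglia-like cluster each rest on 1 identifier. Cluster 4 had no Psmb10 identifier.

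The activator genes Psme1 and Psme2, which encode the subunits of a ring that opens the core without ATP, were also highest in the microglia-like cluster. Psme1 measured 269, 136 and 83.9 CPM in the microglia-like cluster and 0, 15.3 and 4.63 in the oligodendrocyte-like clusters, with no overlap. Psme2 measured 101, 190 and 294 CPM against 22.2, 18.3 and 39.3, again with no overlap. In cluster 3, Psme1 measured 45.9 and 135 CPM on plates 1 and 3, and its upper value lies within the microglia-like range. Psme2 measured 15.3 and 44.8 CPM there, just below and just above the oligodendrocyte-like values, on 3 identifiers in all. In the dividing cells of plate 1, Psme1 measured 54.3 CPM and Psme2 10.9. Pooled ratios, microglia-like over oligodendrocyte-like, were 18.1 (7.34 to 50.6) for Psme1, 6.33 (3.44 to 11.6) for Psme2 and 19.0 (5.75 to 80.7) for Psmb10.

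The other activators shared this order only in part or not at all. Psme3, which encodes a nuclear activator, averaged 68.5 ± 14.8 CPM (SD, n = 3 plates) in the microglia-like cluster, 18.4 ± 18.5 (SD, n = 3) in the oligodendrocyte-like clusters and 154 ± 99.1 (SD, n = 2) in cluster 3, and measured 206 CPM in the dividing cells of plate 1. The microglia-like plates of Psme3 (54.3 to 83.9 CPM) lay above the oligodendrocyte-like plates (0 to 37.0 CPM) and below those of cluster 3 (84.1 and 224 CPM). Psme4, the large activator known from histone turnover, measured 0, 122 and 83.9 CPM on the microglia-like plates and 66.7, 82.5 and 57.8 on the oligodendrocyte-like plates. These Psme4 values overlap.

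Summed over the 5 inducible genes (Psmb8, Psmb9, Psmb10, Psme1 and Psme2), the level was 657 ± 161 CPM (SD, n = 3 plates) in the microglia-like cluster and 37.9 ± 13.9 (SD, n = 3) in the oligodendrocyte-like clusters. It was 158 ± 93.6 (SD, n = 2) in cluster 3 and 65.2 in the dividing cells of plate 1. The 44 other members averaged 2821 ± 337 CPM in the microglia-like cluster and 3343 ± 156 in the oligodendrocyte-like clusters (SD, n = 3 each), in the opposite order and with no overlap. The sum of all 49 was 3479 ± 431 CPM in microglia-like and 3381 ± 157 in oligodendrocyte-like cells (SD, n = 3 each), a gap smaller than the spread between plates.

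**Figure D1:**
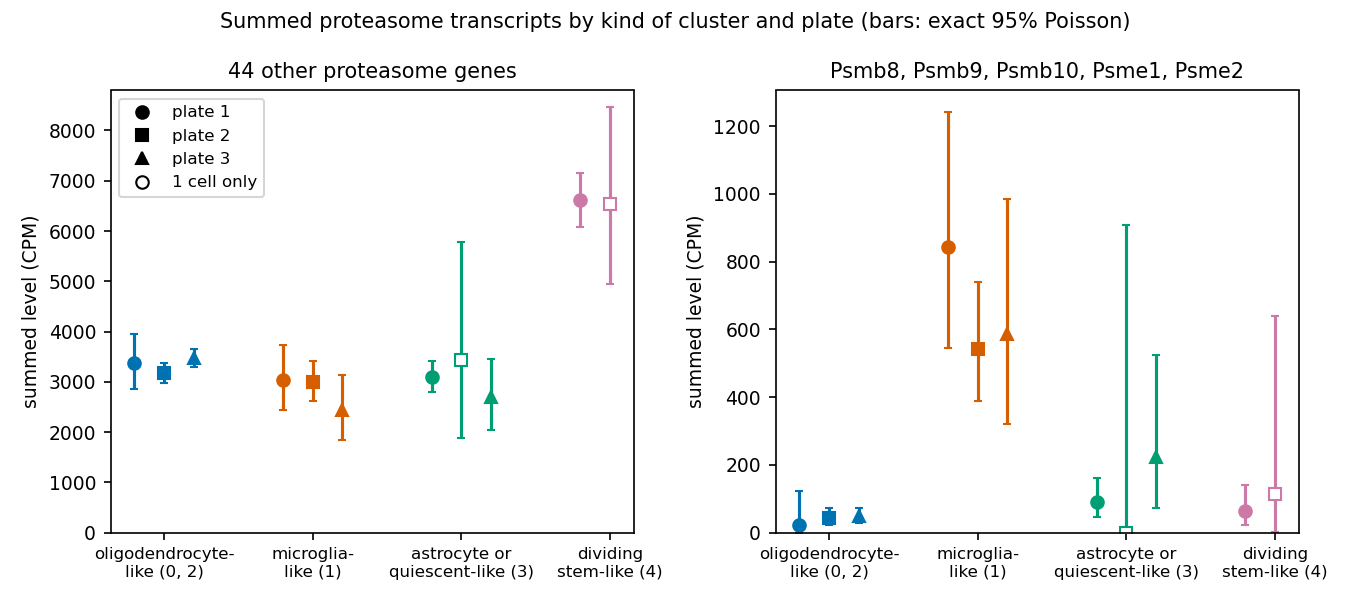
Summed levels (CPM, vertical axes) by kind of cluster (horizontal axes) and plate (marker shape), for the 44 other proteasome genes on the left and the 5 inducible genes on the right; bars are exact 95% Poisson intervals and open markers are sums of 1 cell. The microglia-like plates sit at 543 to 842 CPM for the inducible genes, above all oligodendrocyte-like plates, and the dividing cells of plate 1 sit at 6607 CPM for the other genes.

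Of the constitutive catalytic genes only Psmb7 stood apart between these clusters. Psmb7, the trypsin-like subunit and the most abundant member over all cells (259 CPM), measured 101, 81.5 and 126 CPM on the microglia-like plates. It measured 289, 214 and 331 CPM on the oligodendrocyte-like plates, with no overlap. Psmb6 measured 33.7, 54.3 and 41.9 CPM against 22.2, 134 and 113, which overlap. Psmb5 measured 135, 81.5 and 41.9 CPM against 66.7, 73.4 and 87.9, which also overlap.

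Read as pairs, the inducible genes made up 35 of the 64 identifiers of the 6 exchangeable catalytic genes in microglia-like cells, 54.7% (41.7 to 67.2). In oligodendrocyte-like cells they made up 5 of 390, 1.28% (0.418 to 2.97). The share was 5 of 45, or 11.1% (3.71 to 24.1), in cluster 3 and 0 of 80 in cluster 4, whose interval reaches 4.51%. By pair, the microglia-like share was 59.3% for Psmb8 against Psmb5, 53.8% for Psmb9 against Psmb6 and 50% for Psmb10 against Psmb7. The plates gave 63.6, 50 and 50% for the microglia-like cluster. Its excess over the oligodendrocyte-like clusters averaged 53.5 ± 8.76 percentage points (SD, n = 3 plates), higher on 3 of 3 plates.

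Among the activators, Psme1 and Psme2 together held 69.8% (57.0 to 80.8) of the identifiers of Psme1 to Psme4 in microglia-like cells. This was 28.7% (20.4 to 38.2) in oligodendrocyte-like cells, 35.3% (19.7 to 53.5) in cluster 3 and 22.6% (9.59 to 41.1) in cluster 4. The excess of the microglia-like over the oligodendrocyte-like share was 45.7 ± 12.1 percentage points (SD, n = 3 plates), on 3 of 3 plates.

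**Figure D2:**
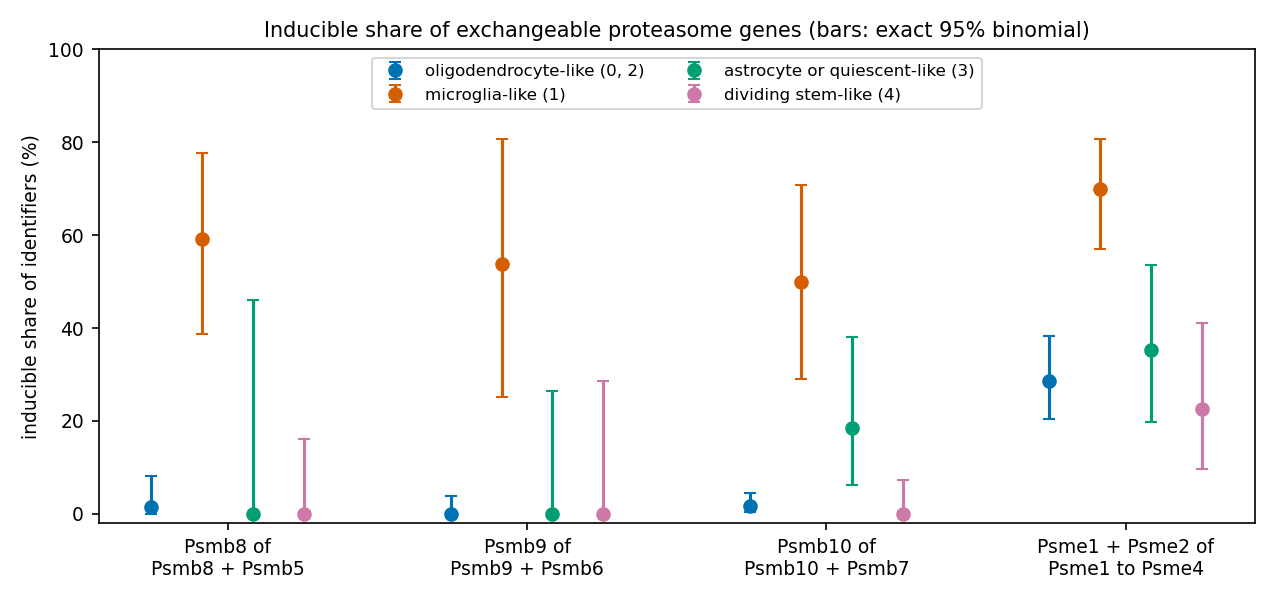
Share of identifiers (%, vertical axis) that belongs to the inducible gene of each exchangeable catalytic pair, and to Psme1 and Psme2 among the 4 activators (horizontal axis), by kind of cluster over all plates, with exact 95% binomial intervals. The microglia-like points lie between 50% and 69.8%, above the points of every other kind.

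Within the microglia-like cluster the inducible genes were spread over many cells. At least 1 of the 5 was detected in 28 of 36 cells (77.8%), compared with 25 of 77 oligodendrocyte-like cells (32.5%). The latter are deeper, with a median of 9012 transcripts per cell against 3455, so each cell was also thinned to 1000 transcripts. The shares were then 52.8% and 6.49%. For Psmb8 alone, 11 of 36 microglia-like cells (30.6%, 16.3 to 48.1) held an identifier against 1 of 77 (1.3%), 0 of 30 and 0 of 6 in the other kinds. For 0 of 30 cells of cluster 3, the floor of 3 counts allows a share of up to 10% of cells with an identifier, and the exact interval reaches 11.6%. After thinning, Psmb8 was found in 3 microglia-like cells and in no other, which is too few for an order. Of the 36 microglia-like cells, 15 held 1 of the 5 genes, 4 held 2, 6 held 3, 3 held 4 and none held all 5.

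Gene by gene, transcripts summed per plate and cluster were compared with edgeR's quasi-likelihood test, blocked by plate, at 0.05 after Benjamini-Hochberg adjustment over all genes. Because the authors drew the clusters from the same expression values, these calls describe the clusters and test nothing. Of 49 members 37 passed the filter on low counts. Between microglia-like and oligodendrocyte-like clusters 4 were called higher and 2 lower, where 28.7% of 5329 genes were called, 13% higher and 15.7% lower. The members' count is no more than that background. The log2 differences were 5.44 (SE 1.38) for Psmb8, 3.62 (SE 0.92) for Psme1, 3.39 (SE 1.27) for Psmb10 and 2.49 (SE 0.73) for Psme2. Those called lower were Psmb7 at -1.80 (SE 0.58) and Psmc3, an ATPase, at -2.19 (SE 0.86). Psmc3 measured 0, 40.7 and 41.9 CPM on the microglia-like plates and 156, 104 and 120 on the oligodendrocyte-like plates. The median over the members was -0.38, beside -0.20 over all genes, and RLE scaling in place of TMM moves the latter by 0.22. These calls rest on few sums: leaving out a plate left 0 to 2 called higher and 0 or 1 lower, and without plate 3 none was called.

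In cluster 3 against the oligodendrocyte-like clusters no member was called by edgeR or by DESeq2, with 4 at an unadjusted p under 0.05 and 13.3% of all genes called (6.79% higher, 6.53% lower). The members that differed most were Psmg2, a chaperone of the outer ring, at a log2 difference of 3.15 (SE 1.52), Psme1 at 2.65 (SE 1.26), Psme3 at 2.19 (SE 0.95), Psmf1, the inhibitor, at 2.07 (SE 1.30) and Psmb10 at 1.77 (SE 1.70). Psmg2 measured 38.2 and 135 CPM on plates 1 and 3 of cluster 3 and 0, 18.3 and 11.6 on the oligodendrocyte-like plates. Psmf1 measured 45.9 and 135 CPM against 0, 33.6 and 18.5. Both sets of values do not overlap, but the upper values rest on 3 identifiers of 4 cells. The members' median was -0.46, beside -0.08 over all genes, a value that RLE scaling moves by 0.18. Without plate 3 the members' median was 0.28 beside 0.63 over all genes, and with at least 5 cells per sum it was 0.21 beside 0.70, so the sign turned while the members stayed below the median of all genes.

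Between the microglia-like cluster and cluster 3 edgeR and DESeq2 called no member, with 2 at an unadjusted p under 0.05 and 12.6% of all genes called (5.78% higher, 6.77% lower). The members that differed most were Psmb8 at 6.49 (SE 2.50), which is a fitted value against a group at 0, Psme2 at 2.70 (SE 1.19), Psmg2 at -2.51 (SE 1.70), Psmd14, the deubiquitinase of the regulatory particle, at -1.87 (SE 1.07), and Psmf1 at -1.74 (SE 1.41). Psmd14 measured 33.7, 81.5 and 0 CPM on the microglia-like plates and 130 and 89.7 on plates 1 and 3 of cluster 3. The highest microglia-like value stood below the lowest of cluster 3. That lowest value rests on the 4 cells of plate 3, where 1 identifier measures 44.8 CPM. The members' median was -0.17 beside -0.03 over all genes, and 0.17 beside 0.71 without plate 1.

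The 6 cells of the dividing stem-cell-like cluster had the highest proteasome level of all. Their summed level was 6672 CPM on plate 1 (5 cells) and 6648 in the only cell of plate 2, against 3381 ± 157 (SD, n = 3 plates) in oligodendrocyte-like cells, 3479 ± 431 (SD, n = 3) in microglia-like cells and 3048 ± 189 (SD, n = 2) in cluster 3. Cell by cell they measured 5247, 5564, 6299, 6648, 7601 and 9165 CPM. Of the 143 other cells 11 (7.69%) reached the lowest of these values, and the highest of the others was 6057 CPM. With 1 sum of at least 3 cells the level of this cluster has no replicate. Dividing cells were also the deepest, with a median of 17377 transcripts. The 9 oligodendrocyte-like cells at or above that depth had 3149 CPM, which is the value of deep cells of another kind.

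The higher level ran through most roles. Of 42 members with at least 20 transcripts, 29 (69%) were highest in the dividing cluster, beside 32.8% of 7599 genes. On plate 1, which held most cells of the dividing cluster and of cluster 3, 40 of 49 members were higher in the dividing cells. The median ratio to cluster 3 was 2.08 over the 39 members with more than 3 identifiers in cluster 3. Neither this count nor this ratio was computed over all genes. The dividing cells were also deeper, with a median of 17377 transcripts over all plates against 4192 in cluster 3. Some of the 40 members rest on few identifiers, such as Psmd9 (2 and 1) and Psmg3 (1 and 1). Over all plates the dividing cluster stood above cluster 3 by 3.12-fold for the 3 constitutive catalytic genes, 2.27-fold for the structural inner-ring genes, 2.23-fold for the ATPases, 2.2-fold for the outer ring, 1.87-fold for the assembly chaperones and 1.85-fold for the non-ATPase genes. The immunoproteasome genes were an exception, with no identifier in the dividing cluster.

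Named members show the same on plate 1, with dividing cells given first and cluster 3 second. Psmb7 measured 500 and 145 CPM, Psmb5 206 and 30.6, and Psmb6 119 and 84.1. Psma5, an outer-ring subunit, measured 359 and 68.8 CPM. Among the 5 most abundant members over all cells, Psmb1, a structural subunit, measured 326 and 252 CPM, Psmb4, another, 228 and 84.1, Psmc2, an ATPase, 206 and 99.4, and Psmd1, the scaffold of the regulatory particle, 196 and 122. Each of these was higher in the dividing cells, by the least for Psmb1. Psmc3ip, the recombination cofactor that is no subunit, measured 76.0 and 7.65 CPM, and 8 of its 10 identifiers came from the dividing cluster.

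Against the mean of the other clusters edgeR called 1 of the 37 members tested, Psma5 with a log2 difference of 2.53 (SE 0.87), where 8.09% of all genes were called (6.44% higher, 1.65% lower), and DESeq2 called none. The lone sum of this cluster is assumed to vary like the others. Of the 37 members 32 lay above 0, with a median of 1.08 beside 0.17 over all genes. RLE scaling moves the latter by -0.18. The other members that differed most were Psmb10 at -4.45 (SE 3.34), a fitted value for a group at 0, Psmg2 at 3.16 (SE 1.79), Psme3 at 2.76 (SE 1.03) and Psmf1 at 2.32 (SE 1.44).

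**Figure D3:**
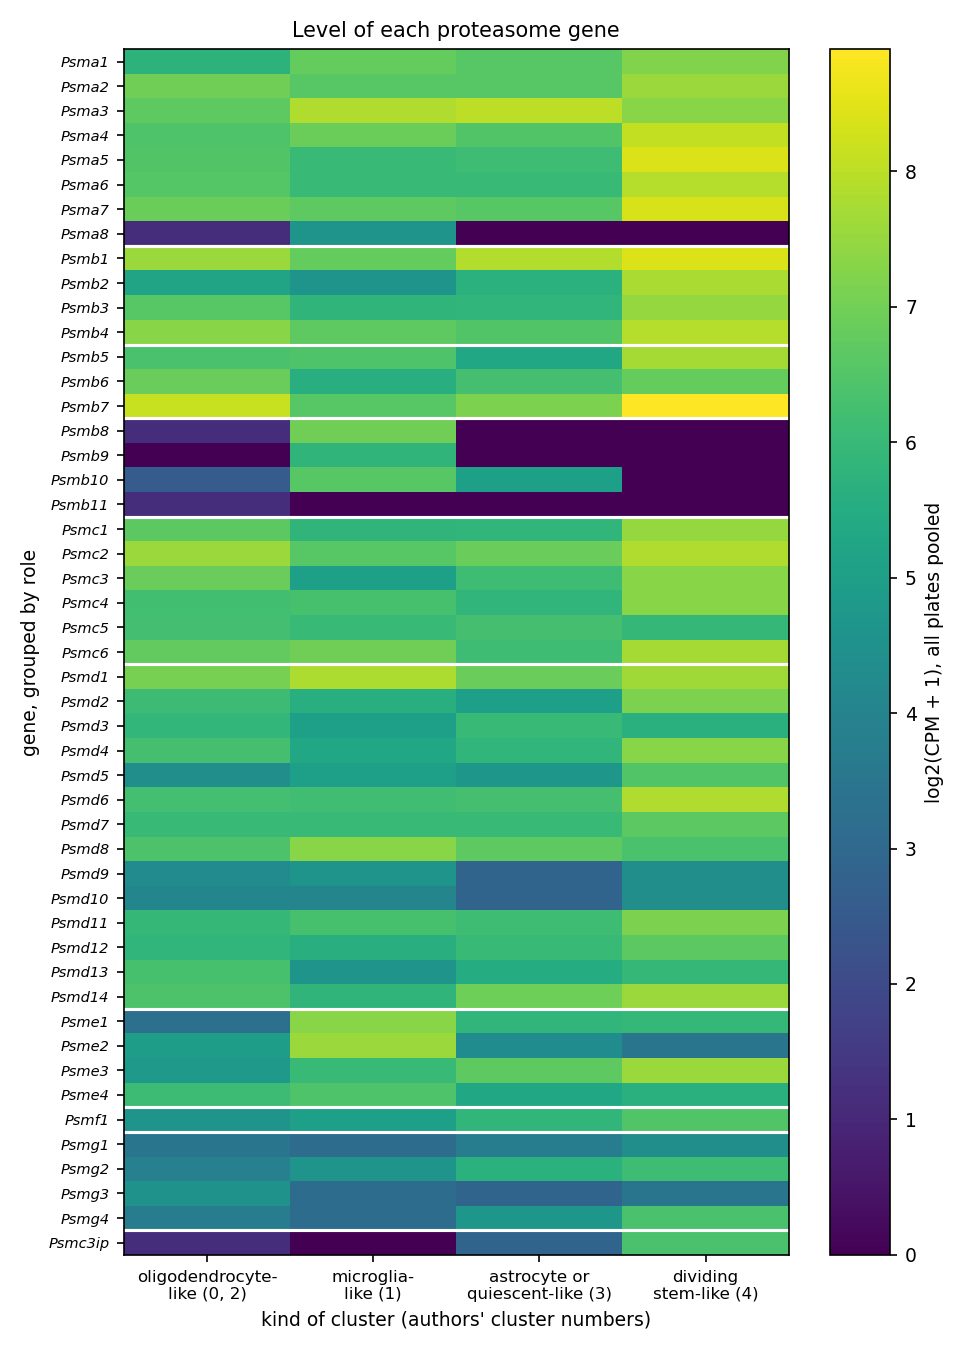
Level of each of the 49 members (rows, grouped by role with white lines between roles) in each kind of cluster (columns), as log2(CPM + 1) over all plates pooled. Psmb8, Psmb9, Psmb10, Psme1 and Psme2 are brightest in the microglia-like column, and 32 of the 49 members are brightest in the dividing column.

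Among the less abundant members, Psmb11, the thymus subunit, had 1 identifier and Psma8, the testis subunit, had 4, so that neither was measurable here. The order of the members by level was shared between clusters to a degree that depended on the genes included. Spearman's rho between kinds of cluster lay between 0.64 and 0.79 across the members other than the 5 inducible genes and Psmc3ip. These are 43 genes, which are not independent replicates. With all 49 members, rho of the microglia-like cluster was lower. It was 0.48 with oligodendrocyte-like, 0.59 with astrocyte or quiescent stem-cell-like and 0.39 with dividing cells. Between the other kinds, rho over all 49 lay between 0.73 and 0.80.

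Each plate was split at its own median autofluorescence, and the high class was compared with the low class. The 2 classes differ in their cells: microglia-like cells gave 22.4, 32.5 and 9.56% of the transcripts of the high class on plates 1, 2 and 3 and 0.937, 4.39 and 0% of the low class. All dividing cells were in the low class, where they gave 53.4% of the transcripts on plate 1 and 4.04% on plate 2. In the sums of mixed cells, a different mix of cells and a different level per cell cannot be told apart.

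No member was called between high and low cells by edgeR or by DESeq2, and none had an unadjusted p under 0.05 among the 34 tested, where 4.03% of 3723 genes were called (3.89% higher, 0.134% lower). Of the 34 members 27 were lower in high cells, with a median log2 difference of -0.38 beside -0.04 over all genes. The summed level was 3157 CPM in high and 5239 in low cells on plate 1, 3192 and 3492 on plate 2, and 3336 and 3625 on plate 3. It was lower in high cells on every plate, and by far the most on plate 1. With the 6 dividing cells left out, a choice made after seeing the data, plate 1 gave 3480 and 3172 CPM, now higher in high cells, and the median over 33 members was -0.06.

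The members that differed most were Psmb2, a structural subunit, at -0.96 (SE 0.55), Psmd4, a ubiquitin receptor, at -0.94 (SE 0.46), Psmb6 at -0.81 (SE 0.41), Psme1 at 0.78 (SE 0.69) and Psmc3 at -0.78 (SE 0.43). Psmd4 measured 71.9, 25.3 and 64.1 CPM in high cells and 116, 88.0 and 100.4 in low cells. Psmb6 measured 40.0, 86.0 and 88.2 CPM against 110, 144 and 127. The classes do not overlap for either gene. These genes were picked as the largest differences, and the share of all genes without overlap was not counted. Here and in the splits below, a lack of overlap thus only describes the values printed.

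Psmb2 measured 55.9, 45.5 and 12 CPM in high cells and 122, 55.6 and 43.7 in low cells, lower on every plate but overlapping between plates. Psmc3 measured 40.0, 75.9 and 100.2 CPM against 162, 102 and 127, with no overlap. Psme1 measured 79.9, 55.6 and 16.0 CPM against 52.2, 23.2 and 13.1, higher on every plate but overlapping between plates.

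The sum of the 5 inducible genes was 224 CPM in high and 92.8 in low cells on plate 1, 192 and 78.7 on plate 2, and 112 and 52.4 on plate 3, higher in high cells on 3 of 3 plates. Psmb8 measured 40.0, 35.4 and 12 CPM in high cells and 0, 9.26 and 0 in low cells. When cells were split at the median of their own plate and cluster, the sum was 90.8 against 232, 108 against 167 and 78.8 against 91.2 CPM, lower in high cells on 3 of 3 plates. In that split the microglia-like share of the transcripts was 7.58, 15.5 and 3.06% in high and 14.1, 22 and 7.99% in low cells, and its part in the result was not tested.

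Within plate and cluster no member was called by edgeR or DESeq2 (32 tested, 1 at an unadjusted p under 0.05; 0.0879% of 3412 genes were called, all lower). The median was -0.17, beside 0.01 over all genes, and -0.07 with the dividing cells left out. The members that differed most were Psmd4 at -0.89 (SE 0.42), Psmd2, a scaffold subunit, at -0.83 (SE 0.51), Psmd12, a lid subunit, at -0.83 (SE 0.49), Psmd8, another lid subunit, at -0.73 (SE 0.42) and Psme3 at 0.66 (SE 0.50). Psmd4 measured 62.9, 36.1 and 68.5 CPM in high cells and 142, 83.7 and 102 in low cells, with no overlap. Psme3 measured 126, 36.1 and 54.8 CPM against 105, 11.2 and 37.5, higher on every plate but overlapping between plates.

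Psmd2 measured 6.99, 45.1 and 78.8 CPM in high cells and 165, 72.5 and 48.3 in low cells. Psmd12 measured 76.9, 27.1 and 37.7 against 44.9, 112 and 80.4 CPM. Psmd8 measured 21.0, 90.3 and 85.6 against 165, 89.2 and 107 CPM. For each of these 3 genes 1 plate went against the other two.

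Without the microglia-like cluster edgeR and DESeq2 again called none of 30 members tested, and none had an unadjusted p under 0.05, where 0.378% of 2913 genes were called (0.343% higher, 0.0343% lower). The median was -0.36 beside 0.01 over all genes. It was -0.02 without plate 1 and -0.06 with the dividing cells left out. The members that differed most were Psma7, an outer-ring subunit, at -0.75 (SE 0.40), Psmb5 at -0.73 (SE 0.50), Psmd4 at -0.70 (SE 0.46), Psma1 at 0.69 (SE 0.52) and Psma2 at -0.60 (SE 0.40), the last 2 also of the outer ring. Psma7 measured 127, 84.4 and 98.2 CPM in high cells and 197, 209 and 147 in low cells, with no overlap.

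Psmb5 measured 27.3, 59.6 and 91.2 CPM in high cells against 146, 101 and 82.6. Psma2 measured 118, 104 and 84.2 CPM against 152, 166 and 165, with no overlap, and Psma1 measured 109, 74.5 and 63.2 against 101, 14.4 and 59.0. Of these, Psmb5 was lower on 2 of 3 plates, Psma2 on all and Psma1 on none. The sum of the 5 inducible genes was 45.4 against 88.7, 39.7 against 50.5 and 52.6 against 64.9 CPM, lower in high cells on 3 of 3 plates. Psme1 alone measured 27.3, 9.93 and 7.02 CPM in high cells and 50.7, 28.9 and 17.7 in low cells, on few identifiers.

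In the oligodendrocyte-like clusters none of 27 members was called by edgeR or DESeq2, none had an unadjusted p under 0.05, and 0% of 2507 genes were called. The median was -0.04 beside 0.01 over all genes, and 0.09 without plate 2. The members that differed most were Psmd8 at -0.82 (SE 0.57), Psmd4 at -0.81 (SE 0.59), Psmc6, an ATPase, at 0.60 (SE 0.54), Psma2 at -0.59 (SE 0.47) and Psmd13, a lid subunit, at -0.53 (SE 0.59). Plate 1 gave only 1 cell to the high class and 2 to the low class. Psmd4 measured 58.6, 42.7 and 74.2 CPM in high cells and 137, 100.1 and 104 in low cells, lower on every plate, as in the splits above that share these cells.

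**Figure D4:**
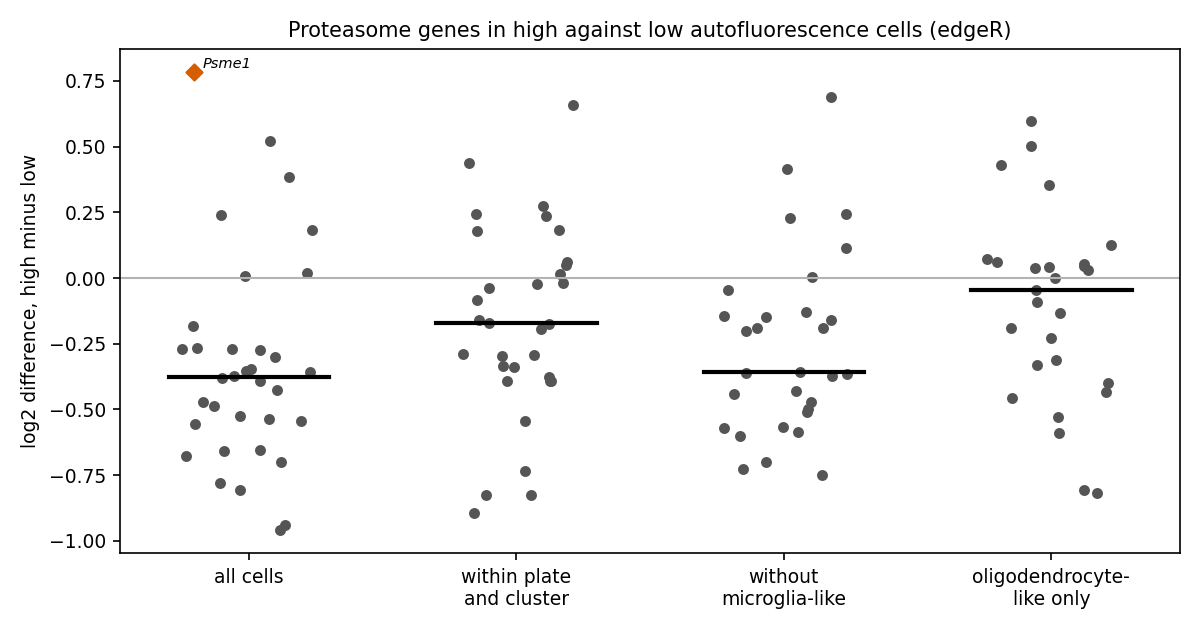
Log2 differences of the members tested (vertical axis, high minus low autofluorescence, edgeR) in 4 splits of the cells (horizontal axis), with the median as a black line and the inducible gene Psme1 as a diamond. The medians lie at -0.38, -0.17, -0.36 and -0.04 from left to right, and no member passed the threshold.

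In the microglia-like cluster alone no member passed the filter on low counts in the fit of high against low cells, nor in the fit of the difference between this contrast and that of the oligodendrocyte-like clusters (0% of 210 and 0% of 623 genes were called). The sum of the 5 inducible genes was 645 CPM in high and 955 in low cells on plate 1, 467 and 609 on plate 2, and 782 and 470 on plate 3, so the plates did not go one way. The inducible share of the 6 catalytic genes differed by 8.59 ± 68.5 percentage points between high and low cells (SD, n = 3 plates; exact sign-flip permutation test, two-sided, p = 1, where the smallest p possible is 0.25). It was lower in high cells on plate 1 (33.3 against 84.6%) and plate 2 (46.7 against 52.9%) and higher on plate 3, where 4 and 6 identifiers were counted. Pooled over plates it was 50% in high and 58.3% in low cells. That of the activators differed by -0.03 ± 7.95 points (same exact test, p = 1).

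Across single cells the share of proteasome transcripts followed autofluorescence weakly at most. Spearman's rho, a description over cells that share plates, was 0.05 over 77 oligodendrocyte-like cells, 0.14 over 36 microglia-like cells and -0.21 over 30 cells of cluster 3. On single plates it was -0.25 (25 cells of plate 2) and 0.25 (48 cells of plate 3) in oligodendrocyte-like cells.

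**Figure D5:**
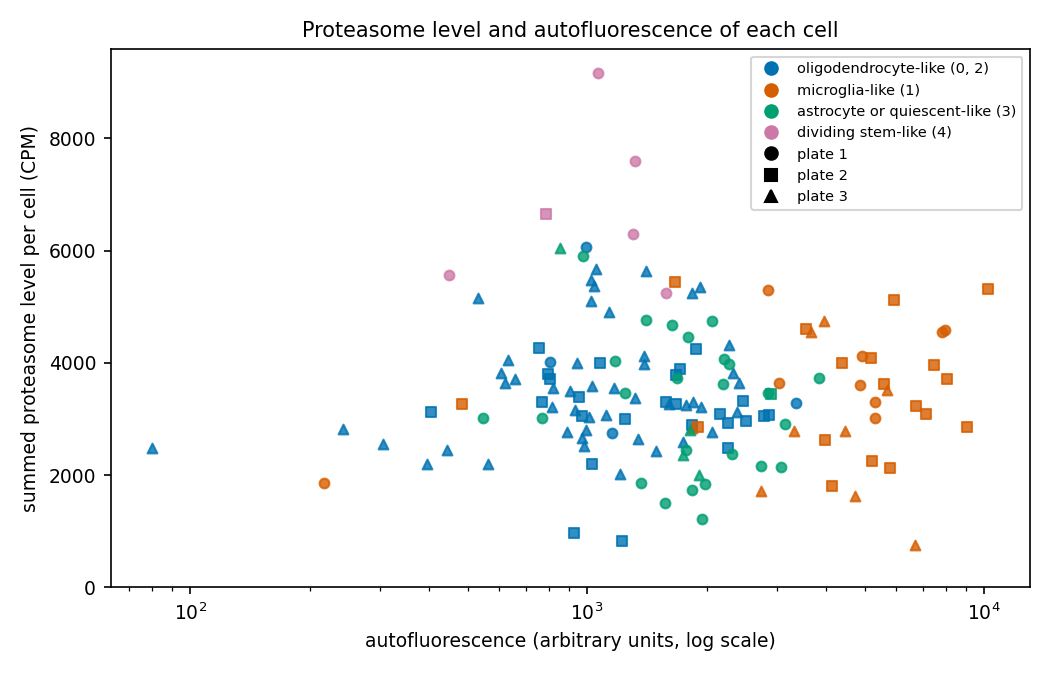
Summed proteasome level of each of the 149 cells (CPM, vertical axis) against its autofluorescence (arbitrary units, logarithmic horizontal axis), coloured by kind of cluster with marker shape for plate. The 6 dividing cells lie at 5247 CPM and above at low autofluorescence, and the microglia-like cells make up most of the bright end without a higher level.

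Values are given for 2 partners of the proteasome. The shuttle factor Ubqln2 was called lower in microglia-like cells, at -2.41 (SE 0.69) against the oligodendrocyte-like clusters and at -2.41 (SE 0.85) against cluster 3. Rps27a, which encodes a ribosomal protein fused to ubiquitin, was called higher in the dividing cluster at 2.01 (SE 0.55), and in microglia-like cells against cluster 3 at 1.65 (SE 0.57). No partner was called by edgeR in any split by autofluorescence, and none had an unadjusted p under 0.05 there.

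A list of 25 measured genes of antigen presentation and interferon signalling was high where the inducible genes were high. As above, calls between clusters describe the clusters and test nothing. The median log2 difference of microglia-like over oligodendrocyte-like clusters was 4.02 over the 15 genes tested, beside -0.20 over all genes. Of the 15, 10 were called higher in microglia-like than in oligodendrocyte-like clusters, beside 13% of all genes. They were Irf8 (5.92), Ifngr1 (5.81), B2m (5.23), H2-K1 (5.21), H2-T23 (5.14), Tapbp (4.82), Ifngr2 (4.16), H2-D1 (4.02), Irf9 (3.29) and Ifnar2 (2.54), as log2 differences. These include the light chain and heavy chains of MHC class I, the peptide-loading factor tapasin and chains of the interferon receptors. In microglia-like cells against cluster 3, 5 of 15 were called higher (Irf8, B2m, Ifngr2, H2-D1 and Ifngr1), beside 5.78% of all genes. In cluster 3 against the oligodendrocyte-like clusters H2-K1 alone was called higher, at 4.05 (SE 0.85), beside 6.79% of all genes. In high against low cells over all clusters 2 of 10 tested were called higher, beside 3.89% of all genes. These were Irf8 at 2.53 (SE 0.58, edgeR adjusted p = 0.0105) and B2m at 2.01 (SE 0.34, edgeR adjusted p = 0.000705). None was called in the other splits. Within plate and cluster the median was -0.49 over 12 tested, beside 0.01 over all genes. Of the 12, 9 were below 0 and 3 had an unadjusted edgeR p under 0.05. The list's sum there was 1803 against 2912, 2164 against 2646 and 1350 against 1910 CPM, lower in high cells on every plate. Without the microglia-like cluster the median was 0.05 over 5 tested. The part of the microglia-like share of each class, given above, was not tested.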

How the data were processed

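SORT-seq of GLAST-selected cells was deposited as estimated counts of transcripts per gene and cell, which the authors made from molecular identifiers. Inverting the correction for a pool of 4096 identifiers gave whole numbers for 100% of 349688 values above 0 (tolerance 1e-06). Autofluorescence is an intensity in arbitrary units, as deposited. Named without a role in the submitters' processing notes are the builds hg19 and mm10 and the tools Seurat 4.1.1, BWA 0.7.15 and R 4.2.0; the sources used here give neither annotation nor well filter. Cluster numbers and plate names were used as deposited, the plate being the last digit of the library name. In the table per cell, 14 columns were not used, nor were the unfiltered counts and the barcode list. No doublet caller was run. Plates were made on separate days, per the series' design text, so classes and clusters of a plate are paired by it; which animals gave which cells is not stated, and p-values measure the spread between these sums.

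Counts were summed per plate and cluster (at least 3 cells) or class, rounded to whole numbers, and fitted over all genes with edgeR 4.0.16 in R 4.3.3 (TMM, filterByExpr, plate as block, Benjamini-Hochberg at 0.05). DESeq2 1.42.0 was an alternative. Values in every plate are printed for the catalytic pairs and activators, for members called or among the 5 largest differences, and for the 5 most abundant. The members and lists were chosen with earlier results of these data known. On counts simulated for high against low cells (3723 genes), 0% of 2-fold and 74% of 4-fold changes were recovered, with no false call. The simulation gave every gene the same assumed spread, with no plate effect and no difference in the mix of cells. These shares therefore need not hold for the real sums. Some results on the partner list are not reported here.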

Additional observations from a re-analysis of the deposited data

How the results depend on the processing

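Counts of calls were recomputed with DESeq2, RLE scaling, no filter, no plate block, mitochondrial genes left out and each plate left out. No member was called in the splits by autofluorescence under those that could be run, nor between the upper and lower tertiles of autofluorescence. Microglia-like against oligodendrocyte-like calls of 4 higher and 2 lower became 0 to 2 and 0 to 1 with a plate left out, and 1 lower with DESeq2 or at least 5 cells per sum. Without the replicate block, the calls were 1 higher for cluster 3 against oligodendrocyte-like (also with RLE), 2 for microglia-like against cluster 3 (1 with RLE) and 6 for the dividing cluster. The 1 call of the dividing cluster became 0 with DESeq2, with no filter, with mitochondrial genes left out and without plate 2 or 3, and its fit without plate 1 could not be run. Averaging cells in place of summing moved the proteasome level to 3268 CPM in cluster 3 and 3571 in oligodendrocyte-like cells. The log2 difference of Psmd2 between high and low autofluorescence within cluster lay between -1.90 and 0.045 with a plate left out, reversed without plate 1. The cause of these changes was not tested. Leaving out mitochondrial genes for levels, and dividing cells for the splits, were chosen after seeing the data. Depth limits the rare genes: Psmb9 rests on 7 identifiers.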
